A study of Caenorhabditis elegans with 2 samples.

Results

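The 6 vitellogenin genes of Caenorhabditis elegans, vit-1 to vit-6, were examined for binding of the chromatin protein EKL-4. The members were taken by name from the Ensembl annotation of the WBcel235 genome and are 6 of its 19973 nuclear protein-coding genes. Every deposited peak counted for a gene when its summit lay inside the gene or no more than 1000 bp from a 5' end among its transcripts. The rule used gene names and positions and no measured value.

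Binding was measured by ChIP-seq, chromatin immunoprecipitation with sequencing, which recovers the DNA fragments bound by a tagged protein. All libraries came from strain RW12207, in which CRISPR insertion had given the ekl-4 gene the allele st12207[ekl-4::TY1::EGFP::3xFLAG], and an anti-GFP antibody was used. EKL-4 is the worm counterpart of mammalian DMAP1, which belongs to histone-acetylating and histone-exchanging complexes. There was a single group of 2 biological replicates. Its animals were synchronized by bleaching and starvation as L1 larvae, collected as young adults at 65 h, and their chromatin was sonicated to 200 to 800 bp. No untagged strain, other age or other genotype was analysed here, so no test between conditions was possible and values are given per replicate. Whole animals were used, so the tissue in which a site was bound cannot be told apart from the others, nor can fewer bound cells be told apart from weaker binding per cell.

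Vitellogenins are the yolk proteins. The adult hermaphrodite makes them in the intestine, at a level that places their mRNAs among the most abundant of the animal, and secretes them into the body cavity, from which oocytes take them up through the receptor RME-2. Their promoters are known for the short elements VPE1 and VPE2. VPE2 contains a GATA site of the kind read by the intestinal factor ELT-2.

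EKL-4 peaks that passed the authors' threshold were found at 2 of the 6 genes, vit-2 and vit-6, each with a summit in the first coding exon, at +54 and +76 from the 5' end and not upstream. In the thresholded list from both replicates ranked against each other, the peak at vit-2 had a deposited signal of 106.9. That at vit-6 had 84.8, and both were below the median of 107.9 for that thresholded list. A stronger thresholded peak, with a signal of 130.6, lay 317 bp past the 3' end of vit-2. Inside and upstream of the other 4 genes, vit-1, vit-3, vit-4 and vit-5, there were peaks only in the longer ranked lists, which reach far below the threshold.

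The genes fall into 3 sequence groups. On chromosome X, vit-3 (chrX:3567355-3572549, minus strand) and vit-4 (chrX:3558769-3563965, minus strand) are 3389 bp apart, and vit-5 (chrX:3403471-3408603, plus strand) lies 150165 bp to the left of vit-4. In global alignments their coding sequences were 97.73 to 99% identical, with an exact run of 1326 bases shared by vit-3 and vit-4. The second group is vit-1 (chrX:7727889-7733168, plus strand) and vit-2 (chrX:5101042-5106169, plus strand), whose coding sequences were 93.88% identical. The last is vit-6 alone (chrIV:8261157-8266459, plus strand), at 57.31 to 58.05% identity to the others. Upstream sequence was less alike. From 250 bases before to 50 after the 5' end, identity was 68.48% for vit-3 and vit-4 and 59.88% for vit-1 and vit-2.

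**Figure D1:**
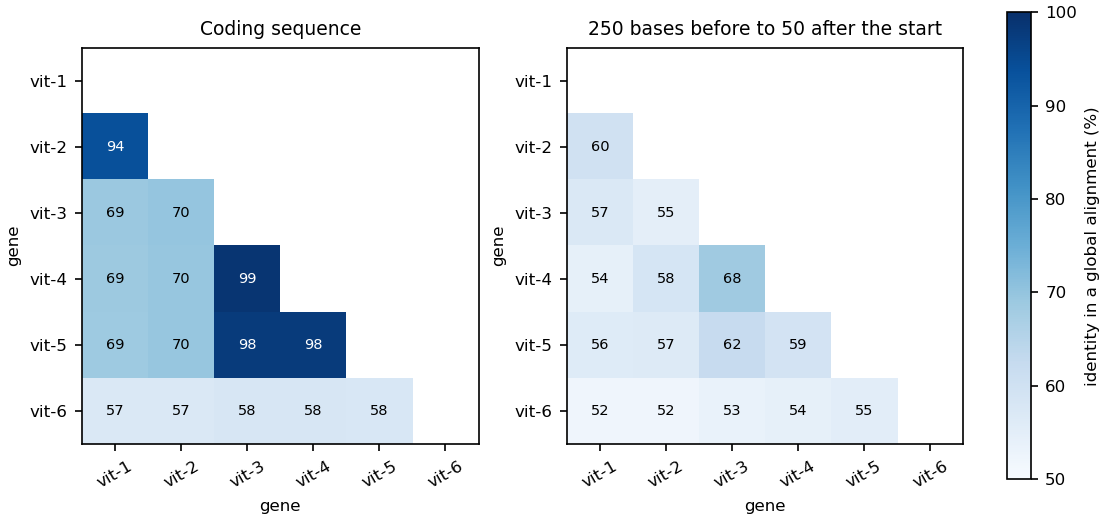
Percent identity between each pair of vit genes in a global alignment, for the coding sequence (left) and for 250 bases before to 50 after the 5' end (right). Coding identity reached 93.88% within the vit-1 and vit-2 pair and 97.73 to 99% among vit-3, vit-4 and vit-5, while no pair of start regions exceeded 68.48%.

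The start regions of 4 members are printed because they hold the elements known to drive yolk genes and because vit-2, vit-6 and vit-4 had their strongest start-side summits in or beside them. Each runs 5' to 3' on the gene's strand, from RefSeq's WBcel235 sequence, and capitals mark every match, on either strand, to the element VPE1, which reads TGTCAAT, to VPE2, which reads CTGATAA, or to the letters TGATAA of a GATA site, which VPE2 contains.
vit-2, chrX:5100792-5101091, plus strand: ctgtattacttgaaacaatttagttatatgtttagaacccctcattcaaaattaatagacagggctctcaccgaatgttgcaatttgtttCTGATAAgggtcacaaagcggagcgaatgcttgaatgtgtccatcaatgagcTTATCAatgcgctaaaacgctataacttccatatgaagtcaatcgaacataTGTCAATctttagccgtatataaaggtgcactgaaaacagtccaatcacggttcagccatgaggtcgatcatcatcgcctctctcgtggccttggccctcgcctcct
vit-6, chrIV:8260907-8261206, plus strand: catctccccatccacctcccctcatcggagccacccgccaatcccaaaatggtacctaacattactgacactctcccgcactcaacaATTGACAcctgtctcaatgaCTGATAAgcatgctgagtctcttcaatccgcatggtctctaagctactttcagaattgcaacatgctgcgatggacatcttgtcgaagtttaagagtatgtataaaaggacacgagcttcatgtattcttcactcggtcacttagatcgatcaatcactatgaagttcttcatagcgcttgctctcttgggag
vit-4, chrX:3563916-3564215, minus strand: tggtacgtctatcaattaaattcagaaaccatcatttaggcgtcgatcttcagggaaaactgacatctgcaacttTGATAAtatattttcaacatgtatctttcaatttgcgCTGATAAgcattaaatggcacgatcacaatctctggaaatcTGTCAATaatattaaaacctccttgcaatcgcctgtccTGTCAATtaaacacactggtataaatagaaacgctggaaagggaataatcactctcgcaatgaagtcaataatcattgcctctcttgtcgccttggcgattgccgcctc
vit-3, chrX:3572500-3572799, minus strand: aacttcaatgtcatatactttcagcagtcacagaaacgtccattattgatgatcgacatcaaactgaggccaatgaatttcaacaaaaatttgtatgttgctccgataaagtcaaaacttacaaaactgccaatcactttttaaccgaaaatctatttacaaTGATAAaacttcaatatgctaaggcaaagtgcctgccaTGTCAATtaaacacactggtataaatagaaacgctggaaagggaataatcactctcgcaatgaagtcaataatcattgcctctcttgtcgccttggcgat

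All 6 start regions held VPE1, a match found in 5.77% of the 19973 promoters of the same length. VPE2 was present in 5 of the 6, with vit-3 the exception, against 8.15% of all promoters. Since vit promoters were already known for VPE1 and VPE2, these counts describe known elements and are no independent result. The GATA letters were present in all 6, against 30.2%. An E2F-type site, which was TTGGCGC or TTCCCGC, or else TTGCCGC or TTCGCGC, on either strand, was present in 1, at +40 of vit-4, against 9.2%. The E2F-type match of vit-4 lies in an exact run that it shares with vit-3, described below. In vit-3 the same letters run past the end of the scanned window. A match is a description of the letters in this window and not evidence of a bound factor. In vit-2 the VPE1 match began at -57 and the VPE2 match at -160, and in vit-6 they began at -163 and -143 (negative positions are upstream of the 5' end).

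The thresholded summits lay downstream of these elements. The sequence within 100 bp of the vit-2 summit at +54 and of the vit-6 summit at +76 held no VPE1, VPE2, GATA or E2F-type match, and in vit-2 that window stops just short of the VPE1 match. Windows were scanned at the thresholded start-side summits of the conservative and larger lists and at each gene's strongest one in the conservative ranked list. Among these, only the window around the vit-4 summit at -89 held the yolk elements, with 2 VPE1, 1 VPE2 and 2 GATA matches. That peak was in the ranked lists only. The window around the vit-1 summit at +213 held 1 E2F-type match. Windows at summits near the 3' ends were scanned too, and the one 349 bp past the end of vit-5 held 1 VPE1 match. Summits found only in a replicate's ranked list were not scanned. Among them, the vit-3 summit at -40 in replicate 2 lay within 100 bp of VPE1 and GATA matches. The vit-4 summit at -210 in replicate 1 lay within 100 bp of VPE2 and GATA matches.

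Short windows centred on summits at the start and past the 3' end are printed next for the sites the results turn on. They run 5' to 3' on the strand of the vit gene, and capitals mark bases that lie in an exact match of 16 or more bases to another vit gene. A window without capitals shares no run of that length with another vit gene.
vit-2 at +54, chrX:5101036-5101156: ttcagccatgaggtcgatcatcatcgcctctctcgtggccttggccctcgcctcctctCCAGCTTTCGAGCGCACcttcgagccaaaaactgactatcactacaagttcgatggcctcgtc
vit-2 at +274, chrX:5101256-5101376: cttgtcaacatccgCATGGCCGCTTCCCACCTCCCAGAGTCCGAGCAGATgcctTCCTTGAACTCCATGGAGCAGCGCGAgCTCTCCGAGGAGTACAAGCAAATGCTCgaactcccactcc
vit-1 at +213, chrX:7728042-7728162: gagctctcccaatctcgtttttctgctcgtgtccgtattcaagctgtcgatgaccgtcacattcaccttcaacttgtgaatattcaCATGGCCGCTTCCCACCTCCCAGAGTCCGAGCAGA
vit-5 at +226, chrX:3403637-3403757: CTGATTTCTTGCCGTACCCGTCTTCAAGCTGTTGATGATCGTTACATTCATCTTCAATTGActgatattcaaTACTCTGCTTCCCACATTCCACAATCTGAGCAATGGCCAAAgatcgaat
vit-6 at +76, chrIV:8261173-8261293: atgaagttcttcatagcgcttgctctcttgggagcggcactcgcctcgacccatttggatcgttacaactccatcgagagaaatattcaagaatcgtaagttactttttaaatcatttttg
vit-2 past the 3' end at +317, chrX:5106426-5106546: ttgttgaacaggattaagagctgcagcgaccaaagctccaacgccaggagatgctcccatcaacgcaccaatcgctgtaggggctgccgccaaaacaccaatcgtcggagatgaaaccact

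The authors' lists come in a thresholded and a ranked form. The 4 thresholded lists hold peaks with a reproducibility score of at least 830, on a scale that ends at 1000. The ranked lists hold many weaker peaks, with a median score of 90 in the conservative list. Each form exists for replicate 1, for replicate 2, for both replicates ranked against each other (the conservative list) and for a larger set from both. The conservative list held 2482 thresholded and 83980 ranked nuclear peaks, and the larger list 2829 and 88699. Replicate 1 had 49388 ranked peaks and replicate 2 had 90703. The scale of the signal is not stated and differs between lists, so a peak is also given by its rank and by the percentage of its list that is weaker.

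In the thresholded lists the count was 1 or 2 of the 6 genes. In the conservative list 2 of 6 had a summit, against 10.6% of all protein-coding genes, 6.3% of those on the X chromosome and 13.7% of those between 4000 and 6000 bp long, the size of the vit genes. In the larger list it was again vit-2 and vit-6, against 11.9% of all genes, 7.62% of X-linked genes and 14.8% of genes of that length. There vit-6 counted by a different peak, at +5064. The replicate 1 list had a summit at 1 of the 6 genes, vit-2, against 6.99% of all genes, and the replicate 2 list at 1, vit-6, against 8.04%. No vit gene had a summit under the rule in the thresholded lists of both replicates.

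In the ranked lists all 6 genes had summits, but so did most genes. The shares of all protein-coding genes were 73.7% in the conservative, 76.0% in the larger, 66.6% in the replicate 1 and 80.6% in the replicate 2 ranked list. The vit genes together held 62 summits in the conservative ranked list, of which 57 were in coding exons, 2 in 3' UTRs, 1 in an intron, 1 in the noncoding RNA gene C42D8.16 upstream of vit-2 and 1 was intergenic. Only 2 of the 62 were upstream of a vit gene. Of the 62, 37 had a ranked summit of replicate 1 within 100 bp, 45 had one of replicate 2, and 27 had both. The conservative list was itself made from both replicates, and the share of matches by position alone was not computed. A summit in both replicates was found for 8 of 12 in vit-2, 7 of 15 in vit-6, 5 of 12 in vit-5, 5 of 11 in vit-1, 1 of 6 in vit-3 and 1 of 6 in vit-4.

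**Figure D2:**
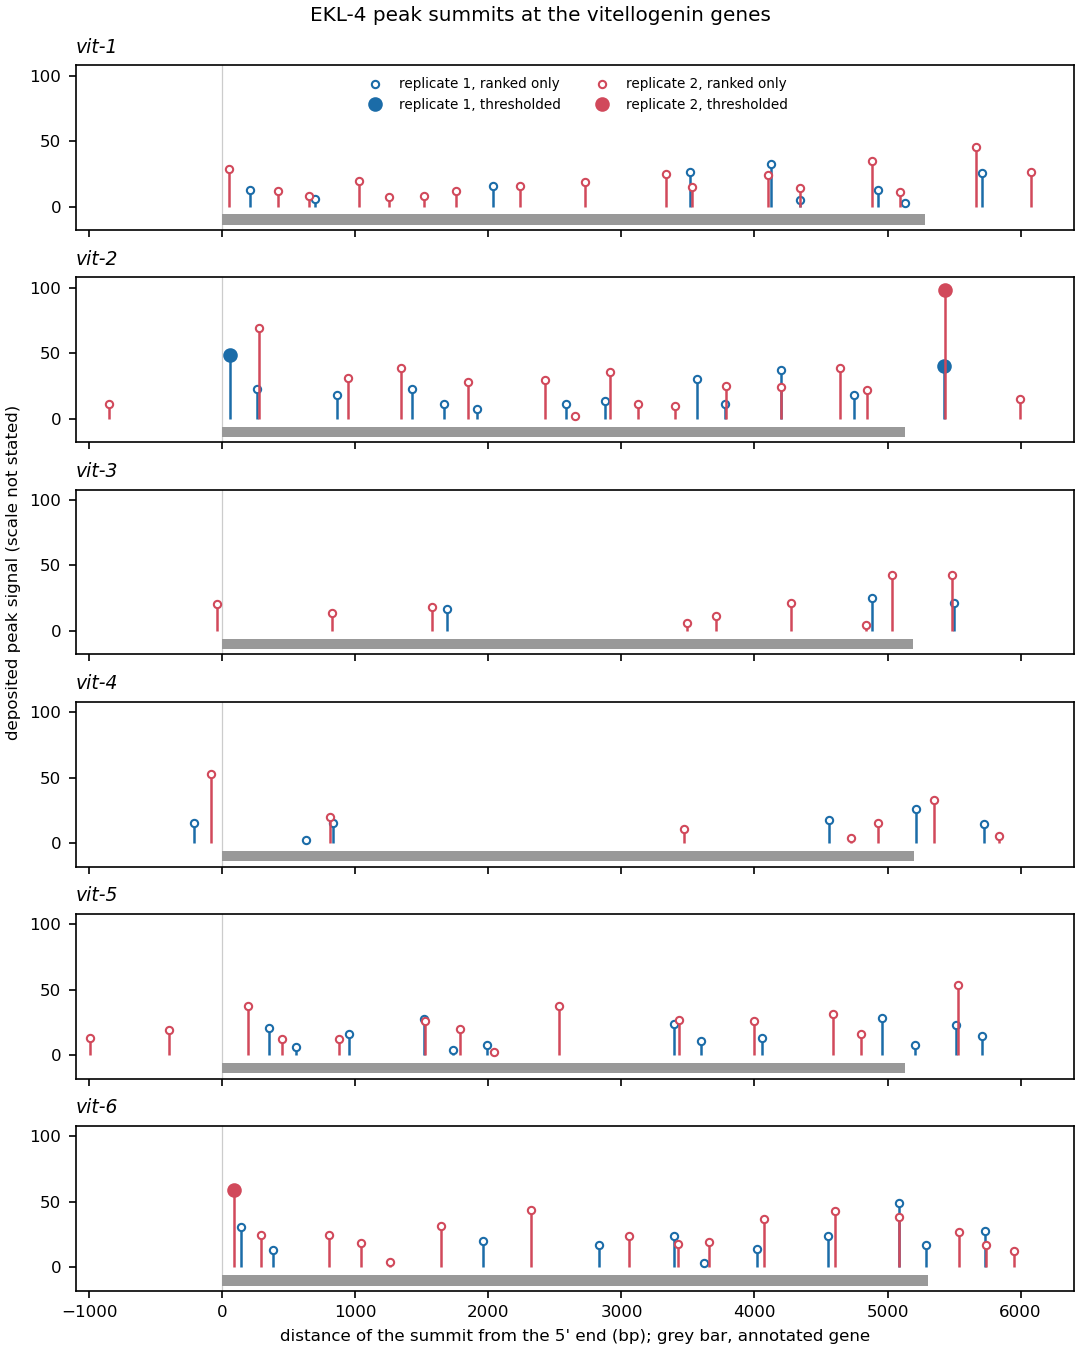
Deposited signal of each ranked peak summit (vertical axis, scale not stated) against its distance from the 5' end of each vit gene in bp (horizontal axis), in replicate 1 (blue) and replicate 2 (red), with filled points for peaks also in that replicate's thresholded list and a grey bar for the gene. Summits run along the whole of vit-1, vit-2, vit-5 and vit-6 and are few in vit-3 and vit-4, and thresholded ones are seen at the start of vit-2 (replicate 1), past its 3' end (both replicates) and at the start of vit-6 (replicate 2).

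At vit-2 the start-side binding was split between 2 overlapping peaks in the first coding exon, and each replicate favoured a different one. The first peak, chrX:5100916-5101275 with its summit at +54, had a signal of 106.9 and rank 1271 in the conservative thresholded list, where 48.8% of peaks were weaker. In replicate 1 it had a signal of 48.4 and rank 1152 among the thresholded peaks, of which 22.9% were weaker. Replicate 2 had no summit within 100 bp of it, in either form of its list.

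The second vit-2 peak, chrX:5101136-5101495 with its summit at +274, was above the threshold only in the larger list, with a signal of 89.1, rank 1840 and a score of 889. Its score in the conservative ranked list was 647. Replicate 2 had a signal of 69.7 there, with 98.8% of its ranked peaks weaker, and a score of 781. Replicate 1 had a signal of 22.5, with 82.6% weaker. Both replicates thus had their strongest start-side peak in the first exon of vit-2, at +54 in replicate 1 and at +278 in replicate 2.

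The first peak lay in sequence that vit-2 shares with no other gene over 31 bases. None of the 31-mers within 100 bp of +54 occurs a further time in the genome, and the longest exact run shared with vit-1 at the same distance from the start was 17 bases, in a window 69.95% identical. Around +274, 5.848% of the 31-mers are repeated, all of them in another vit gene, with 82.55% identity to vit-1 and an exact run of 36 bases. In vit-1 a ranked peak lay at nearly the same place, +213, with a signal of 41.6 in the conservative list, where 79.3% of peaks were weaker, and 12.4 in replicate 1, where 42.8% were weaker. Replicate 2 had no summit within 100 bp of it. The capital letters in the printed vit-1 and vit-2 windows show the run they share.

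In the conservative list the strongest peak at any vit gene was the one past the 3' end of vit-2. It spans chrX:5106306-5106665, with its summit 317 bp beyond the end of vit-2, outside the rule but within 500 bp of the gene, a window chosen after the values were seen. The summit is in a coding exon of C42D8.9, a gene on the opposite strand whose end overlaps that of vit-2 by 11 bp. It was in all 4 thresholded lists. The signal was 40.1 in replicate 1 (rank 1304, score 859) and 98.4 in replicate 2 (rank 431, score 1000), and 130.6 in the conservative list (rank 863, with 65.2% of peaks weaker). Of the vit sites described here it alone was thresholded in both replicates. None of its 31-mers is repeated in the genome, so over that length the sequence is not shared with vit-1.

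At vit-6, the only member off the X chromosome, both ends of the gene carried peaks, and the replicates ordered them oppositely. The start-side peak, chrIV:8261053-8261412 with its summit at +76 in the first coding exon, had a signal of 84.8 and rank 1923 in the conservative thresholded list, with 22.5% of peaks weaker and a score of 952. In replicate 1 its signal was 30.6, a ranked peak only, and in replicate 2 it was 59.2, a thresholded peak with a score of 886. The 5' end of the noncoding RNA gene K07H8.16 is nearly as close, from which the summit lies at -83 bp. In the larger list the same peak had a score of 660 and was not thresholded.

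The peak near the other end of vit-6, chrIV:8266041-8266400, had its summit at +5064, in the fifth exon and 238 bp before the 3' end. Its signal was 49.2 in replicate 1, with 97.5% of the ranked peaks weaker, and 38.3 in replicate 2, with 92.1% weaker. Its scores were 729 in replicate 1 and 72 in replicate 2. It was thresholded in the larger list only, with a signal of 90.5 and rank 1785. The nearest 5' end is that of K07H8.5, from which the summit lies at -2103 bp. No 31-mer around either vit-6 summit is repeated in the genome, so neither lies in sequence shared with a paralogue.

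The 3' ends of vit-1 and vit-5 also carried peaks that were thresholded in the larger list. The vit-5 peak, chrX:3408772-3409131, had its summit 349 bp past the gene, in an intron of unc-78, an opposite-strand gene that encodes an actin-disassembly factor of the AIP1 family. Its signal was 23.2 in replicate 1, 53.8 in replicate 2 and 82.7 in the larger list, where it had rank 2116. The vit-1 peak, chrX:7733385-7733744, had its summit 397 bp past the gene, in an intron of the opposite-strand SET-domain gene set-12. Its signal was 25.6 in replicate 1, 45.6 in replicate 2 and 62.4 in the larger list, where it had rank 2623 and 7.28% of peaks were weaker. Neither peak was in a replicate's thresholded list, and neither window held a repeated 31-mer.

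Counted within 500 bp of the 3' end, 1 vit gene (vit-2) had a summit in the conservative thresholded list, against 5.88% of protein-coding genes, and 4 (vit-1, vit-2, vit-5 and vit-6) in the larger one, against 6.57%. Since this window was chosen after the peaks were seen, the count is a description. In the ranked lists all 6 genes had a summit in it, against 59.4% of protein-coding genes in the conservative list, 43.8% in replicate 1 and 66.1% in replicate 2. Their strongest 3' end signals were 24.7 to 49.2 in replicate 1, highest in vit-6, and 32.5 to 98.4 in replicate 2, highest in vit-2. The thresholded summits in this window at vit-1, vit-2 and vit-5 were inside a convergent neighbour, while each of these genes also had ranked summits before its 3' end. Whether they belong to the vit gene or to the neighbour was not tested.

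The vit-3 and vit-4 genes had no thresholded peak in any list, at either end. The strongest ranked peak of vit-4, chrX:3563874-3564233, lay upstream, at -89, where in the conservative ranked list no other vit gene had its strongest start-side summit upstream. It had a signal of 67.1 and rank 4112 in the conservative ranked list, where 95.1% of peaks were weaker, but a score of only 230. Replicate 2 had a signal of 52.6 there, with 97.4% of its ranked peaks weaker. Replicate 1 had no summit within 100 bp, but it had an upstream one at -210, with a signal of 15.6 and 58.8% weaker. Its strongest peak of vit-4 under the rule had a signal of 17.3, with 66.47% weaker.

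Around the vit-4 summit, 23.98% of the 31-mers are repeated, all of them in another vit gene, and 62 bases in a row within 100 bp of the summit are shared with the region at the same distance from vit-3. The run goes on past that window and reaches 127 bases within 200 bp of the summit. The run starts at the VPE1 match nearest to the gene, as the printed vit-3 and vit-4 start regions show. In vit-3 the replicate 2 ranked list had a summit at -40 with a signal of 20.3, and replicate 1 had none near the start. The strongest vit-3 peak, chrX:3567387-3567746, lay in the last exon, 212 bp before the 3' end, with a signal of 60.2 in the conservative ranked list and 42.5 in replicate 2. Of its 31-mers, 51.46% are repeated in other vit genes. The replicate 1 summit nearest to it was at +4880, with a signal of 24.7.

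The other described peaks of vit-3 and vit-4 were weaker in the conservative ranked list, and some were matched in both replicates. A peak 340 bp past the 3' end of vit-3 had a signal of 41.7 there. It had 21.2 in replicate 1 and 42.5 in replicate 2. Under the rule, the summits with both replicates within 100 bp were at +1616 of vit-3 (28.7) and +858 of vit-4 (33.9). Past the 3' end of vit-4, 18 bp from it and 2645 bp from the 5' end of rgs-7, a ranked peak had a signal of 54.7 in the conservative list and 25.6 in replicate 1. None of the 31-mers around it is repeated. At +422 of vit-3, nearer to the noncoding RNA gene T27A10.8, a ranked peak had a signal of 16.6 in the conservative list and no summit within 100 bp in either replicate. All 31-mers around it are repeated, with an exact run of 192 bases shared with vit-4.

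The vit-5 gene had no thresholded peak under the rule, although its ranked summits were dense. The strongest, chrX:3403517-3403876 with its summit at +226, had a signal of 61.9 in the conservative ranked list, with 93.7% of peaks weaker, and 37.3 in replicate 2. Of its 31-mers, 39.18% are repeated, and the sequence within 100 bp was 94.55% identical to vit-3 and 86.73% to vit-4. At nearly the same place, +223, vit-3 had a summit with a signal of 12.9 in the conservative ranked list, and vit-4 had none within 100 bp. The replicates peaked elsewhere in vit-5, at +4960 with a signal of 28.6 in replicate 1 and at +2528 with 37.6 in replicate 2. Nearest to +226, replicate 1 had a summit at +353 with a signal of 20.5.

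Within vit-1 the strongest ranked peaks lay in the later part of the gene and not at the start. In the conservative ranked list they were at +3433, with a signal of 55.7, and at +4141, with 53.1. Replicate 1 had its strongest at +4125, with a signal of 32.5, and replicate 2 at +4885, with 34.5. At the start of vit-1, replicate 2 had a ranked summit at +53 with a signal of 28.7, the place of the thresholded summit of vit-2, where replicate 1 had none for vit-1.

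The strongest summit of each vit gene ranked high within the conservative ranked list. In the conservative ranked list the percentage of weaker peaks was 91.06% for vit-1, 98.39% for vit-2, 93.06% for vit-3, 95.1% for vit-4, 93.69% for vit-5 and 97.76% for vit-6. Their median was 94.4%, against 89.49% over genes of 4000 to 6000 bp with a summit and 85.37% over all protein-coding genes with a summit. In replicate 1 the vit median was 92.57%, against 82.33% over genes of their length and 78.87% over all. In replicate 2 it was 95.99%, against 89.62% over genes of their length and 84.61% over all. The genes vit-2 and vit-6 were the highest of the 6 in every ranked list. The vit-4 value moved most between replicates, from 66.47% in replicate 1 to 97.41% in replicate 2. In replicate 1 vit-4 was thus below the median of genes of its length. So was vit-1 in replicate 2, at 88.49%.

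**Figure D3:**
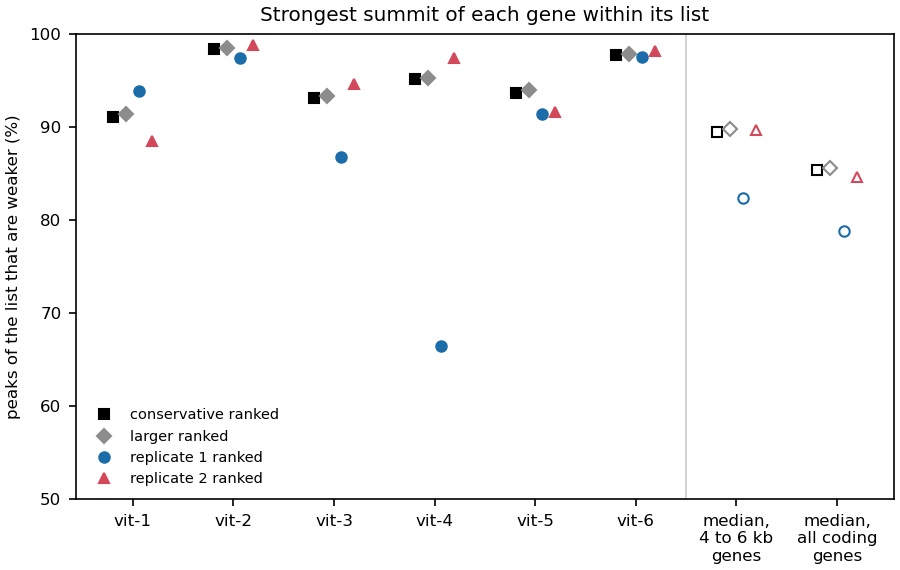
Percentage of each ranked list's peaks that are weaker than the strongest summit of a gene (vertical axis), for the 6 vit genes (filled) and as the median over genes of 4000 to 6000 bp and over all protein-coding genes, both with a summit in that list (open), with 1 marker per list. The vit values lie above the median of genes of their length except for vit-4 in replicate 1 (66.47% against 82.33%) and vit-1 in replicate 2 (88.49% against 89.62%).

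The density of ranked summits along the gene separated the members. In replicate 2, vit-1 had 2.84 summits per kb, vit-2 2.535, vit-5 2.14 and vit-6 2.45, against a median of 1.105 over the 2008 genes of 4000 to 6000 bp. Of those genes, 0 had a higher density than vit-1, 6 than vit-2, 57 than vit-5 and 8 than vit-6. In replicate 1 the same 4 genes had 1.515, 2.34, 1.95 and 1.89 summits per kb, against a median of 0.493. There 99 of the 2008 genes were denser than vit-1, 1 than vit-2, 20 than vit-5 and 30 than vit-6. In contrast vit-3 had 0.385 in replicate 1 and 1.35 in replicate 2. In vit-4 the density was 0.577 in replicate 1 and 0.77 in replicate 2. In replicate 1, 1190 of the 2008 genes were denser than vit-3 and 877 denser than vit-4, and in replicate 2, 682 and 1361.

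The share of repeated sequence also differed between the members. Of all 31-mers in the gene, 80.52% were repeated in the genome for vit-3 and 83.86% for vit-4, against 61.41% for vit-5, 23.3% for vit-1, 23.99% for vit-2 and 0% for vit-6. In each of the 5 genes all the repeated 31-mers were in another vit gene. The genes with the most repeated sequence, vit-3 and vit-4, were thus those with the fewest summits. The density of vit-5, most of whose 31-mers are repeated, was nearer to that of vit-6. How the authors placed reads that match more than 1 gene is not given in the sources used here, and the part of repeated sequence in the low density was not tested. At the summits called inside vit-3 and vit-4 the median share of repeated 31-mers was 81.87% and 98.83% in the conservative list. It ranged from 27.49 to 100% in vit-3 and from 4.678 to 100% in vit-4, with 5 of 6 summits and 4 of 5 summits at or above 50%.

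**Figure D4:**
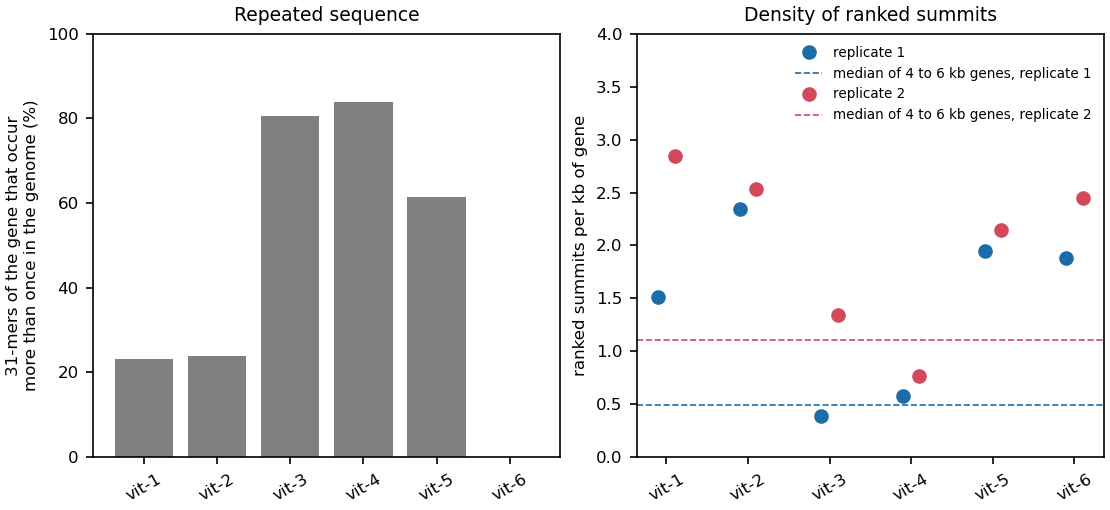
Percentage of the 31-mers of each vit gene that are repeated in the genome (left, bars from 0) and ranked summits per kb of the gene in replicate 1 (blue) and replicate 2 (red), with dashed lines at the median of genes of 4000 to 6000 bp (right). The 2 genes above 80% repeated sequence, vit-3 and vit-4, have the lowest densities in both replicates, while vit-5 at 61.41% lies well above both lines.

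No peak just inside or outside the upstream limit of the rule was thresholded in the conservative list. On the other side, the vit-2 peak 317 bp past the 3' end was thresholded there, as described above. In the conservative ranked list the summit nearest to the upstream limit on its inner side was at -875 of vit-2, with a signal of 31.7 and rank 30352. On its outer side was one at -1076 of vit-2, with a signal of 55.7 and rank 7511, and one at -1181 of vit-5, with a signal of 19.7. The outer peaks had scores of 434 at vit-2 and 39 at vit-5.

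By the 4 ranked percentiles of the strongest summit, the genes nearest to the median of the 6 members were aars-1, which encodes alanyl-tRNA synthetase, C27H6.9 and hpo-11, at Euclidean distances of 0.615, 0.659 and 0.729 percentage points. The members themselves were 4.7 (vit-5) to 26.2 (vit-4) from that median.

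Genes that act on yolk proteins had thresholded peaks at a few members, some of them far from the gene's start. Of 28 genes for yolk uptake, lipoprotein assembly and vit regulation, 7 (25%) had a summit in the conservative thresholded list, against 10.6% of all protein-coding genes. These genes are long, with a median of 6391 bp against 2027 bp, and the share with a summit was 13.7% among genes of 4000 to 6000 bp. Counted within 1000 bp of a 5' end without the gene body, it was 3 of 28, against 8.82% of all protein-coding genes. In replicate 1 alone 2 of the 28 (7.143%) had a thresholded summit, against 6.99% of all protein-coding genes, and in replicate 2 alone 4 (14.29%), against 8.04%.

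Among the 6 uptake genes, only rme-2, which encodes the yolk receptor of the oocyte, had one, at -71 with a signal of 135.4 and rank 796. In replicate 2 it had a thresholded signal of 72.4, and in replicate 1 none. The larger list added rme-1, an EHD-type ATPase of endocytic recycling, at -31 with a signal of 76.04. Of the 2 assembly genes, dsc-4 (the worm relative of the microsomal triglyceride transfer protein) and vrp-1, neither had one.

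Of 20 regulators, whose median length was 7216 bp, 6 (30%) had a summit in the conservative thresholded list. The share was 10.6% over all protein-coding genes and 13.7% over those of 4000 to 6000 bp. Among the 6, lin-29, din-1 and lin-14 are much longer, at 17702 to 20312 bp. The thresholded list of replicate 1 had a summit at 2 regulators (10%), against 6.99% of all protein-coding genes. That of replicate 2 had one at 3 (15%), against 8.04%. In lin-29, ceh-60, lin-41 and lin-14 the strongest summit lay at +3666 to +7239, far into the gene. The strongest was in lin-29, a zinc-finger gene of the larval-to-adult switch, with a signal of 248.9 and rank 187. It was thresholded in both replicates, at 94.2 in replicate 1 and 149.1 in replicate 2, but the summit was 1259 bp from the 5' end of hmg-12 and 3666 bp from that of lin-29. ceh-60, a PBX-type homeobox gene that acts on vit transcription, had a signal of 134.4 at +7239, near the end of the gene, and was thresholded in both replicates too, at 72.3 in replicate 1 and 48.7 in replicate 2.

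The other regulators with a conservative summit were din-1 (a corepressor gene, signal 128.1, with the summit at -10 from ZK20.8), lin-41 (110.7), lin-28 (97.6, at +33) and lin-14 (86.6, at +6553). The larger list added pqm-1, a zinc-finger gene, with a signal of 74.8. None had a thresholded peak in replicate 1, and of them only din-1 had one in replicate 2. Genes without one in any thresholded list included akt-1 and daf-16 of insulin signalling and the Argonaute gene alg-1. The intestinal GATA factor genes elt-2 and elt-7 had none either.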

How the data were processed

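The deposited peak lists are on ce11, per the file headers and the accompanying text files, whose chromosome lengths are those of WBcel235. Neither aligner nor peak caller, nor a version of either, is given in the sources used here. Per the accompanying text files, the authors ranked peaks by the irreproducible discovery rate, and a further input that these files leave undescribed entered the thresholded lists. The deposited score is that ranking's value, the deposited signal is the caller's strength of a peak on a scale not stated, and another deposited column is a q-value as −log10, used in 1 alternative. Each of the 4 ranked lists has 8 further columns on the inputs that were ranked, which were not used. Read depth is unknown, so no counting error is given. The 16 and 18 mitochondrial peaks of replicate 2 and of the larger list were left out.

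The summit is the start plus the offset column of the file. Genes came from the Ensembl annotation and sequence from RefSeq. Ranks are by signal over nuclear peaks. Paralogues were aligned globally with biopython 1.88, and 31-mers were counted on both strands of the genome. Since vit-3, vit-4 and vit-5 are near-identical copies, and vit-1 and vit-2 are close ones, peaks in sequence they share may be misplaced. Named genes were the 6 members, up to 10 yolk pathway genes with the strongest conservative summit and the first 3 without one by alphabet, the 3 genes nearest in their ranked percentiles, and genes whose 5' end is nearest to a described summit. The genes that only the larger list added, the assembly genes dsc-4 and vrp-1, and elt-2 and elt-7 were named after their values were seen. The members and lists were chosen with earlier results of these data known. Alternatives were other windows, any overlap of the peak, stronger peaks only, the larger list, each replicate alone, other measures of strength, other word lengths and window sizes. Procedures were tested on simulated data. Python 3.11.15, numpy 2.4.6, pandas 2.3.3 and matplotlib 3.10.9 were used.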

Additional observations from a re-analysis of the deposited data

How the results depend on the processing

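The count of vit genes with a summit in the conservative thresholded list, 2, was also 2 with windows of 1000, 500 or 250 bp around the 5' end without the gene body, and with any overlap of the peak. It was also 2 in the larger list, but there vit-6 counted by its peak at +5064 and not by that at +76. The count was 0 with peaks at or above the list's median signal, and 1 in either replicate's list alone. The ranked count was 6 in all alternatives run. The yolk pathway count, 7, was 3 with each of the 3 windows without the gene body, and 4 without replicate 1 and 2 without replicate 2. Within 250 bp of the 3' end in place of 500 bp, an alternative chosen after seeing the data, the count of vit genes was 0 in the conservative and 1 in the larger thresholded list. The cause of these moves was not tested, beyond the smaller windows and fewer peaks themselves. The percentile of vit-4 was 66.5 in the replicate 1 list, and that of vit-3 86.8. With 50-mers in place of 31-mers the repeated share was 20.4% around the vit-5 summit at +226 and the vit-3 summit in its last exon, 14.5% around the vit-4 summit at -89, and 0% around the vit-2 summit at +274 and the vit-1 summit at +213. With 21-mers it was 23.8% around +274 of vit-2, 12.2% around +213 of vit-1 and 1.1% around +76 of vit-6. In a window reaching 200 bp either side it was 3.77% past the end of vit-4. With 500 bases before the 5' end in place of 250, the counts of vit promoters with VPE1, VPE2, GATA and E2F-type letters were again 6, 5, 6 and 1. No paired analysis was possible because there was 1 group and no test. Depth is unknown, so a gene without a peak is not shown to be unbound.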
